A study of Mus musculus with 14 samples.

Results

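Wnt ligands, their receptors and the secreted proteins that modulate them were followed through the muscularis of the mouse gut. The set was defined by gene symbol alone: all protein-coding genes named Wnt, Fzd, Sfrp, Rspo or Dkk with a number, plus Lgr4, Lgr5, Lgr6, Lrp5 and Lrp6. It held 46 of the 40481 genes in the bulk table, and all 46 were also among the 32285 gene features of the nuclei. Bulk RNA-seq covered colon and jejunum of C57BL/6 mice in 4 groups of 3 libraries, and single nuclei of colon were profiled in 1 library of each genotype. The genotypes are "Carmn iKO", called KO here as labelled, and "WT mTmG", called WT. Carmn encodes a long non-coding RNA best known from smooth muscle, and mTmG is a fluorescent membrane reporter allele. Which cells lost Carmn and by which Cre, the age and sex of the mice, any treatment and whether each library is 1 animal are not stated in the labels, so p-values measure the spread between these libraries. The muscularis holds smooth muscle layers, the nerve plexus between them, interstitial cells and, as its outer lining, mesothelium.

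Wnt proteins are secreted lipid-modified ligands that bind Frizzled receptors. With the co-receptors Lrp5 and Lrp6 they stop the degradation of beta-catenin, and other ligands of the family, such as Wnt5a, act mainly through branches that do not need beta-catenin. Secreted Frizzled-related proteins bind Wnt ligands, most Dickkopf proteins block the co-receptors, and R-spondins act through Lgr4, Lgr5 and Lgr6 to keep Frizzled receptors on the cell surface. In the gut the pathway is best known for maintaining the epithelial stem cells of the crypts, with ligands and R-spondins coming from stromal cells.

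The 12 bulk libraries held 24254905 to 44315104 counts. The summed level of 12 smooth muscle markers was 35142 to 94216 CPM (counts-per-million of the scaled library size), so the labelled tissue carried its defining markers. Epithelial RNA was also present and uneven: Epcam was at 5.11 CPM in WT colon t7 and at 304 CPM in WT colon t6. Carmn was at 304 to 996 CPM in the bulk libraries labelled KO and at 171 to 351 CPM in WT, which goes against the label. The labels do not say which exons were removed. In the nuclei, Carmn was at 6.65 UMIs per 10000 in WT and 2.25 in KO. KO colon t4 and KO jejunum m1 stood apart from the other libraries, and calls that change without either are given beside the results. The libraries of nuclei shared 11 barcodes.

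Of the 46 members, 39 had enough counts to be tested in bulk. Dkk1, Dkk4, Rspo4, Wnt1, Wnt3, Wnt7a and Wnt8a did not, with 15 to 55 counts each over all 12 libraries. Levels between genes were compared as RPKM (reads per kilobase of merged exons, scaled to library size as CPM), averaged over the 12 libraries. Dkk3, a divergent Dickkopf protein, was highest at 91.3 RPKM (range over libraries 47.6 to 184). Sfrp1 followed at 42.6 RPKM (30.8 to 62.0) and Rspo1 at 42.6 RPKM (11.3 to 113). The receptors Fzd2 at 32.6, Fzd1 at 30.8 and Fzd7 at 28.8 RPKM came next, and their ranges over libraries overlapped. Lrp6 at 15.95, Lgr4 at 15.7, Wnt5a at 14.1 and Rspo3 at 12.4 RPKM completed the 10 most abundant members. Among the Wnt ligands, Wnt5a, Wnt9a (10.7), Wnt5b (8.82) and Wnt2b (8.10 RPKM) had the highest means over all libraries, and their order differed between groups. Wnt5a had the highest group mean of the ligands in WT jejunum (29.0 ± 5.68 RPKM, SD, n = 3). In WT colon the mean of Wnt5b (10.98 ± 2.57) was above that of Wnt5a (7.09 ± 1.42). Wnt9a was above Wnt5a in KO colon (7.04 ± 2.80 and 5.65 ± 2.60) and in KO jejunum (21.7 ± 8.75 and 14.6 ± 4.89 RPKM), where the library values of the 2 genes overlapped.

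Sfrp2 (8.98), Lrp5 (8.49), Fzd5 (8.37), Sfrp5 (6.21), Fzd4 (4.95), Fzd8 (4.71), Fzd6 (3.38), Dkk2 (3.25), Sfrp4 (2.79), Wnt11 (2.38), Wnt7b (1.97), Wnt6 (1.58), Wnt4 (1.44) and Rspo2 (1.03) had mean RPKM between 1 and 9. Fzd3, Fzd9, Fzd10, Wnt2, Wnt3a, Wnt8b, Lgr6, Wnt10b, Lgr5, Wnt10a, Wnt9b and Wnt16 were tested but had means from 0.101 to 0.807 RPKM. Exons of 7 members overlap a gene on the opposite strand (Wnt11, Rspo3, Wnt5a, Fzd6, Wnt7b, Sfrp2 and Fzd5). The labels do not say whether counting used strand, so the counts of these 7 genes may hold reads of the neighbour.

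**Figure D1:**
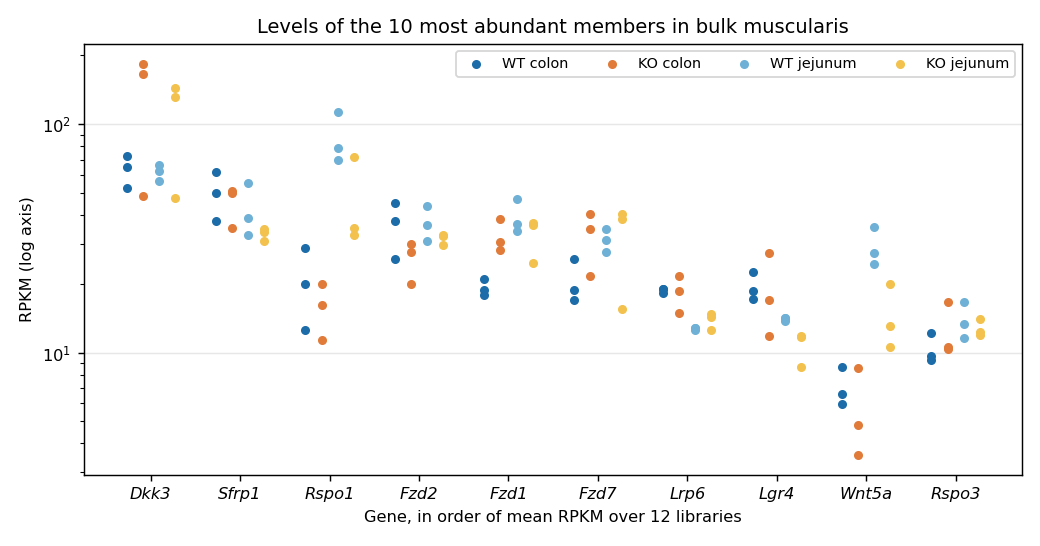
RPKM (log axis) of the 10 members with the highest mean level; each point is 1 bulk library and colours give the 4 groups of 3 libraries. Rspo1 and Wnt5a spread over the widest range, with jejunum libraries above colon libraries, while Lrp6 stayed between 12.6 and 21.7 RPKM.

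Differences past the threshold lay between the tissues. The comparisons of tissues and of genotypes share libraries, so they are not independent of each other. In WT mice, 5 of 39 members differed between colon and jejunum (12.8%, against 1.56% of all 20886 genes tested; edgeR quasi-likelihood test, Benjamini-Hochberg adjusted p below 0.05). The ligand Wnt5a, the R-spondin Rspo1, the Dickkopf Dkk2 and the receptor Fzd1 were lower in colon (4 members, background 0.862%), and the ligand-binding Sfrp2 was higher in colon (1 member, background 0.694%). DESeq2 called 10 of 39 members (background 5.68%) and limma voom 6 (background 1.67%). For 23 of 39 members the 3 WT colon values did not overlap the 3 WT jejunum values (background 22.9%). The median log2 difference over members was 0.04, as it was over all genes, so the members did not shift as a group.

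Promoters of 3 of these 5 genes are shown because the genes differ between tissues and the bases before their starts are what a reader would search first. They are the 250 bases upstream of the transcription start in RefSeq (GRCm38.p6, plus strand in all 3 cases), with CTTTG or its reverse complement CAAAG, the core letters of the sites bound by the TCF and LEF factors that act with beta-catenin, in capitals.
Dkk2, chr3:132085042-132085291: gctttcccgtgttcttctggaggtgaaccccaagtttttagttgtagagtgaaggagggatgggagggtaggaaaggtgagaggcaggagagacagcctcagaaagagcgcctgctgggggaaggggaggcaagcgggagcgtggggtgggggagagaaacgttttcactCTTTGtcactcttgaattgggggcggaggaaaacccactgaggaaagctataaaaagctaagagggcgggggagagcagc
Rspo1, chr4:124986180-124986429: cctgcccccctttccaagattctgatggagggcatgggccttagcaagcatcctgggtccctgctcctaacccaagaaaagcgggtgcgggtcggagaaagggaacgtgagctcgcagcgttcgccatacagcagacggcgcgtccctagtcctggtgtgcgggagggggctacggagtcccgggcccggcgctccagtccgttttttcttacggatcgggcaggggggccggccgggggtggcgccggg
Sfrp2, chr3:83766071-83766320: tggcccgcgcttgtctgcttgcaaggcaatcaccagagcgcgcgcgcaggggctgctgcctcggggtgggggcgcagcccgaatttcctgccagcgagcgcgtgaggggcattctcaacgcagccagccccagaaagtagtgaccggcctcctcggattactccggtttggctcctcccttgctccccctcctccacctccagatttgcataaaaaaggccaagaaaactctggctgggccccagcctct
The core was found once in the Dkk2 window and not in the other windows, and 48.6% of all windows of this length hold it on either strand. The longer form CTTTGAT, searched on both strands, was in none of the 3, and 3.21% of all such windows hold it. In windows reaching 50 bases past the start, CTTTGAT was found in 2 of 32 searched promoters of members, those of Wnt5b and Wnt11, against 3.73% of all 32851 promoters. A match is a description of letters only.

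Gene positions are given in GRCm38 as in GENCODE M21. Dkk2 (ENSMUSG00000028031, chromosome 3, 132085292 to 132180304) encodes a secreted ligand of Lrp5 and Lrp6. Its WT colon libraries stood at 6.21 (t1), 3.93 (t6) and 4.41 (t7) CPM. The WT jejunum libraries stood at 23.9 (t1), 17.7 (t6) and 20.1 (t7) CPM. Every jejunum value was above every colon value, and the log2 difference was -2.08 (SE 0.30, edgeR adjusted p = 0.00838), a level 4.23-fold higher in jejunum. In KO, colon had 4.47 (m1), 8.67 (t4) and 4.58 (t6) CPM and jejunum 20.6 (m1), 14.04 (t1) and 16.1 (t4) CPM. The groups again did not overlap, and the log2 difference of -1.52 (SE 0.30, adjusted p = 0.0379) was the only member call in KO, where 1 of 39 passed (background 1.29%; lower in colon 1, background 0.833%; higher in colon 0, background 0.46%). The WT call held in all 12 fits that left out 1 library (adjusted p 0.00241 to 0.0415). The KO call held in 4 of those 12 (without KO colon t4 or any of the 3 WT colon libraries) and was lost without any of the other 8, with adjusted p reaching 0.130.

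Wnt5a (ENSMUSG00000021994, chromosome 14, 28504750 to 28527448), the ligand of the beta-catenin-independent branches, had 46.7 (t1), 51.7 (t6) and 68.0 (t7) CPM in WT colon. In WT jejunum it had 213 (t1), 191 (t6) and 276 (t7) CPM. The groups were far apart, with a log2 difference of -2.03 (SE 0.34, edgeR adjusted p = 0.0161), 4.09-fold higher in jejunum. Its exons overlap Gm2670 on the opposite strand, so part of the count may belong to that gene. The call was lost without WT colon t1, WT colon t6 or WT jejunum t1, with adjusted p reaching 0.0844. In KO, colon had 37.9 (m1), 67.0 (t4) and 27.8 (t6) CPM against 82.5 (m1), 103 (t1) and 157 (t4) in jejunum, which did not overlap, but the difference of -1.37 (SE 0.33, adjusted p = 0.0715) passed only without KO colon t4 (adjusted p = 0.0156).

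Rspo1 (ENSMUSG00000028871, chromosome 4, 124986430 to 125009099), a ligand of the Lgr receptors, had 24.2 (t1), 38.7 (t6) and 55.9 (t7) CPM in WT colon. WT jejunum had 153 (t1), 135 (t6) and 220 (t7) CPM. All jejunum values were higher, with a log2 difference of -2.10 (SE 0.39, edgeR adjusted p = 0.0242), 4.28-fold. The call was lost without WT colon t1, WT colon t6 or any of the 3 WT jejunum libraries, with adjusted p reaching 0.0958. In KO, colon had 38.8 (m1), 21.9 (t4) and 31.2 (t6) CPM and jejunum 63.4 (m1), 67.9 (t1) and 140 (t4), a difference of -1.56 (SE 0.38, adjusted p = 0.0729) that did not pass.

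Fzd1 (ENSMUSG00000044674, chromosome 5, 4753839 to 4758035) encodes a Wnt receptor. It had 78.9 (t1), 74.9 (t6) and 87.7 (t7) CPM in WT colon and 143 (t1), 197 (t6) and 154 (t7) CPM in WT jejunum. The groups did not overlap, and the log2 difference was -1.03 (SE 0.20, edgeR adjusted p = 0.0316). The call was lost without any of the 6 WT libraries, with adjusted p reaching 0.133. In KO the 2 tissues overlapped, with 118 (m1), 162 (t4) and 127 (t6) CPM in colon, 104 (m1), 155 (t1) and 152 (t4) in jejunum, and a difference of -0.01 (SE 0.20, adjusted p = 0.983).

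Sfrp2 (ENSMUSG00000027996, chromosome 3, 83766321 to 83774316) encodes a secreted protein that binds Wnt ligands. WT colon had 36.8 (t1), 38.4 (t6) and 49.7 (t7) CPM. WT jejunum had 13.002 (t1), 17.9 (t6) and 13.1 (t7) CPM. Here colon was the higher tissue without overlap, with a log2 difference of 1.51 (SE 0.29, edgeR adjusted p = 0.0301). The call was lost without any of the 6 WT libraries, with adjusted p reaching 0.155. Sfrp2 shares exon bases with Gm26771 on the opposite strand.

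Other members were apart between tissues without passing the edgeR threshold. Sfrp4, a further Frizzled-related protein, had the largest estimate: WT colon had 24.3 (t1), 18.6 (t6) and 23.2 (t7) CPM and WT jejunum 0.700 (t1), 2.83 (t6) and 0.0533 (t7) CPM. Its log2 difference was 4.201 (SE 1.17, edgeR adjusted p = 0.128; DESeq2 adjusted p = 0.0115). It was picked out after its values were seen, and of the 12 fits without 1 library it passed in the edgeR test in the 1 without KO jejunum m1 (adjusted p = 0.0433). Its difference in KO (4.08, SE 1.18, adjusted p = 0.116) also passed in edgeR in that fit alone (adjusted p = 0.0369). All 4 tested Frizzled-related genes had higher estimates in colon, in WT and in KO, with median log2 differences of 1.28 and 0.87. Of the 10 Frizzled receptors tested, 8 were lower in WT colon, with a median of -0.40, against 4 lower in KO, with a median of 0.02. The ligand Wnt2b had a WT difference of -1.95 (SE 0.45, edgeR adjusted p = 0.0639) that passed without KO colon t4, KO jejunum m1 or KO jejunum t1 (lowest adjusted p 0.0209). Wnt8b, at very low level, had a WT difference of -3.19 (adjusted p = 0.147) that passed in edgeR without KO jejunum m1 (0.0311). In KO, Wnt9a also did not overlap between tissues (log2 difference -1.62, SE 0.37, edgeR adjusted p = 0.0619), and it passed without KO jejunum m1, WT colon t6 or WT colon t7 (lowest adjusted p 0.0474). The KO difference of Lgr4 (0.81, SE 0.26, edgeR adjusted p = 0.150) passed without KO colon t4 (0.0322). In that genotype 14 of 39 members did not overlap between tissues (background 19.6%), DESeq2 called 7 (background 6.87%) and voom 3 (background 1.46%).

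Markers of other cell types moved with these genes. The summed level of 5 mesothelial markers (Msln, Upk3b, Wt1, Lrrn4 and Krt19) was 345 to 800 CPM in WT colon and 863 to 1755 CPM in WT jejunum, and 319 to 417 against 515 to 1342 CPM in KO. Krt19 alone was 78.6 to 530 CPM in WT colon and 125 to 277 CPM in WT jejunum. It was highest in WT colon t6, the library with the most Epcam, so the colon sums are not a measure of mesothelium alone. None of the 5 was at 0 in any library, 4 of 5 were lower in WT colon, with a median log2 difference of -1.99, and none was called. The sum of 6 markers of interstitial cells of Cajal, the pacemaker cells of the gut, was 511 to 644 CPM in WT colon and 930 to 1066 CPM in WT jejunum, and 2 of the 6 were called (4 of 6 lower, median -0.58). In bulk tissue, fewer cells of a type and less RNA per cell cannot be told apart, and the part of these markers in the differences of Wnt5a, Rspo1, Fzd1 and Dkk2 was not tested. The sum of 7 pericyte and vascular mural markers was 1214 to 1703 CPM in WT colon and 4095 to 5487 CPM in WT jejunum, of which Rgs5 alone was 639 to 734 and 3032 to 4415 CPM, while 4 of the 7 had higher estimates in WT colon (median 0.20, 1 called). Of 10 fibroblast markers 8 had higher estimates in WT colon (median 0.74, 1 called), as did 5 of 5 lymphatic endothelial markers (median 1.94, 1 called). So did all 7 enteric glia (median 0.38), 9 enteric neuron (0.37), 7 macrophage (0.66) and 7 epithelial markers (1.76), none called. The part of any of these lists in the higher Sfrp2 and Sfrp4 of colon was not tested. Of 4 adipocyte markers 0 had higher estimates in WT colon (median -2.79, none called), and their part was not tested. The nuclei, described further on, came from colon only. In them Sfrp2 was highest in mesothelial-like and Sfrp4 in enteric glia-like nuclei.

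**Figure D2:**
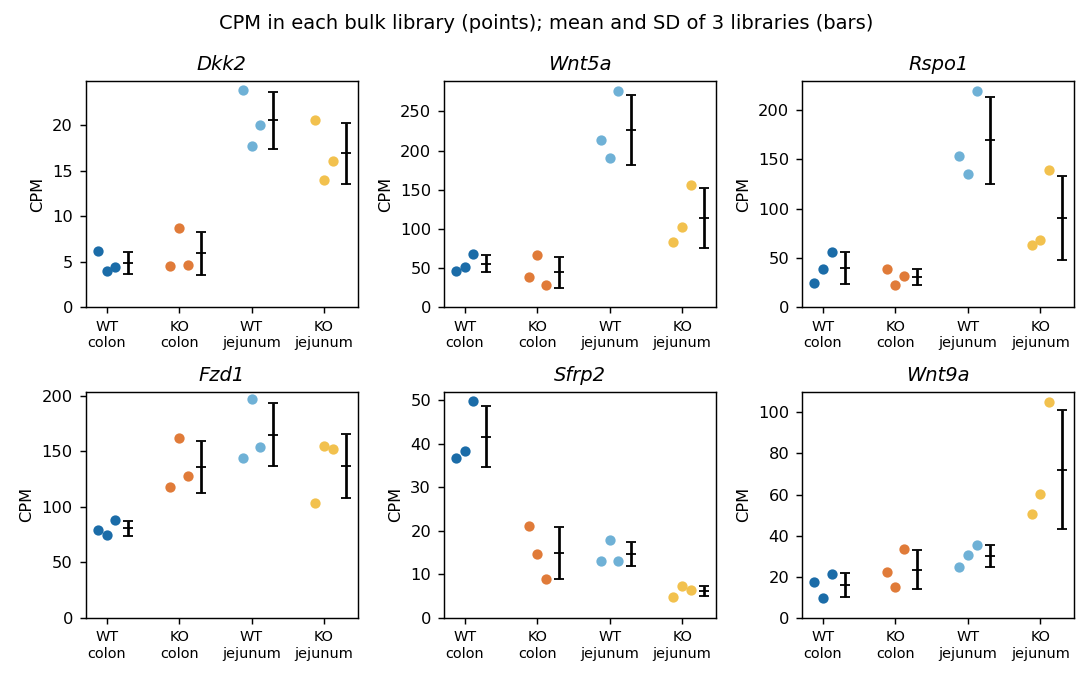
CPM in each of the 12 bulk libraries (points) with the mean and SD of each group of 3 (bars) for the 5 members called between tissues and for Wnt9a. Dkk2, Wnt5a and Rspo1 were higher in all jejunum libraries than in colon libraries of the same genotype, and Sfrp2 was lower in KO than in WT libraries within each tissue.

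Between genotypes no member passed the threshold. In colon 0 of 39 members were called in KO against WT by edgeR (background 0.388%), 8 had an unadjusted p below 0.05 (background 14.5%), DESeq2 called 2 of 38 (background 5.01%) and voom 1 (background 0.455%). For 6 of 39 the KO and WT colon values did not overlap (background 19.2%). In jejunum 0 of 39 were called by edgeR (background 0.215%), 10 had an unadjusted p below 0.05 (background 13.2%), DESeq2 called 3 (background 3.95%) and voom 0 (background 0.417%). For 15 of 39 the jejunum groups did not overlap (background 22.2%). The median log2 change of the members was -0.01 in colon and 0.01 in jejunum, beside 0.00 and 0.02 over all genes. For the KO change in colon minus that in jejunum, edgeR called 0 members and 0 of all 20886 genes (background 0%), so a difference of single members was not shown and not excluded, with 2 at an unadjusted p below 0.05 (background 4.16%), DESeq2 called 0 of 33 (background 0.217%) and voom 0 (background 0%).

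The values of Sfrp2 were lower in all KO than in all WT libraries of each tissue, short of the threshold in edgeR. KO colon had 21.01 (m1), 14.6 (t4) and 8.94 (t6) CPM beside the WT colon values of 36.8 to 49.7 CPM. KO jejunum had 4.82 (m1), 7.28 (t1) and 6.38 (t4) CPM beside 13.002 to 17.9 CPM in WT. The log2 changes were -1.49 (SE 0.29, edgeR adjusted p = 0.0630) in colon and -1.25 (SE 0.30, adjusted p = 0.114) in jejunum, and they differed by -0.24 (SE 0.41, adjusted p = 0.957). DESeq2 gave adjusted p = 3.83e-04 and 0.00750, and voom 0.0375 and 0.183. In edgeR the colon value passed without KO colon m1 or KO jejunum m1 (lowest adjusted p 0.0274). Beside this, 1 of 5 mesothelial markers had a higher estimate in KO colon and 2 of 5 in KO jejunum (medians -0.47 and -0.33). Of 12 smooth muscle markers 0 were higher in KO colon and 8 in KO jejunum (medians -0.57 and 0.20). Of 7 macrophage markers 4 and 7 were higher (medians 0.42 and 1.76), and of 10 fibroblast markers 4 and 8 (medians -0.11 and 0.46). All 7 blood endothelial markers were higher in each tissue (medians 0.31 and 0.71). Of 5 lymphatic endothelial markers 4 and 5 were higher (medians 0.13 and 1.12), and of 9 enteric neuron markers 5 and 0 (medians 0.02 and -0.43). Of 4 adipocyte markers 0 were higher in KO in either tissue (medians -1.84 and -1.47). None of the markers in these lists was called. The part of these markers in the values of Sfrp2 was not tested. The mean of Sfrp2 in KO colon, 14.9 ± 6.04 CPM (SD, n = 3), was close to that of WT jejunum, 14.7 ± 2.77 CPM (SD, n = 3).

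Fzd1 was higher in KO colon than in WT colon without overlap, at the values above, with a log2 change of 0.75 (SE 0.20, edgeR adjusted p = 0.143; DESeq2 0.0234). In jejunum its change was -0.27 (SE 0.20, adjusted p = 0.605), and the difference between tissues of 1.02 (SE 0.29, 95% interval 0.39 to 1.65, unadjusted p = 0.00417, adjusted p = 0.941) did not pass. Wnt9b, a ligand at very low level, had 0.494 (t1), 0.0824 (t6) and 0.156 (t7) CPM in WT colon and 1.09 (m1), 0.416 (t4) and 1.87 (t6) CPM in KO colon. These values overlapped, and the log2 change was 2.19 (SE 0.76, edgeR adjusted p = 0.222). In jejunum Wnt9b had 0.221 (t1), 0.117 (t6) and 0.0533 (t7) CPM in WT and 0.457 (m1), 0.275 (t1) and 0.294 (t4) CPM in KO.

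Wnt9a (ENSMUSG00000000126, chromosome 11, 59306928 to 59333552), a ligand, had the smallest adjusted p of the ligands in jejunum. WT jejunum had 24.8 (t1), 30.4 (t6) and 35.6 (t7) CPM and KO jejunum 50.7 (m1), 60.4 (t1) and 105 (t4) CPM. The groups did not overlap, with a log2 change of 1.25 (SE 0.37, edgeR adjusted p = 0.186; DESeq2 0.0418). In colon WT had 17.2 (t1), 9.78 (t6) and 21.2 (t7) CPM and KO 22.3 (m1), 14.8 (t4) and 33.3 (t6) CPM, which overlapped (log2 change 0.55, SE 0.37, adjusted p = 0.535). The receptor Fzd8 had 35.2 (t1), 42.8 (t6) and 36.4 (t7) CPM in WT jejunum and 18.6 (m1), 21.3 (t1) and 20.7 (t4) CPM in KO jejunum. It did not overlap there and did not pass in edgeR (log2 change -0.92, SE 0.25, adjusted p = 0.157; DESeq2 0.0298). In colon Fzd8 overlapped, at 37.4 (t1), 20.9 (t6) and 33.6 (t7) CPM in WT and 27.1 (m1), 16.2 (t4) and 27.3 (t6) CPM in KO.

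All 3 tested R-spondins had lower KO estimates in jejunum (median -0.91): Rspo1 -0.91 (adjusted p = 0.335), Rspo2 -1.23 (adjusted p = 0.227) and Rspo3 -0.12 (edgeR adjusted p = 0.855). Wnt5a had a KO change of -0.99 in jejunum (SE 0.33, adjusted p = 0.228) and -0.33 in colon (SE 0.33, adjusted p = 0.709). Dkk2 had changes of 0.28 in colon and -0.28 in jejunum (SE 0.30 and 0.29). Of 15 Wnt ligands tested, 9 had higher estimates in KO colon and 11 in KO jejunum, with medians of 0.33 and 0.57. The 4 lower in KO jejunum were Wnt5a, Wnt5b, Wnt2b and Wnt8b, which include all of the 4 most abundant ligands except Wnt9a. Those higher in KO jejunum included Wnt2, Wnt3a, Wnt10a, Wnt9b and Wnt16, with mean RPKM from 0.101 to 0.361. The counts thus do not show a rise of ligand RNA. The other members with an unadjusted p below 0.05 were Fzd3, Wnt10b, Lrp5, Wnt5b and Dkk3 in colon and Sfrp5, Wnt10a, Lgr6 and Fzd4 in jejunum, with edgeR adjusted p from 0.190 to 0.329.

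None of the most abundant members passed between genotypes. Dkk3 had 218 (t1), 176 (t6) and 243 (t7) CPM in WT colon and 559 (m1), 163 (t4) and 619 (t6) in KO colon. In jejunum it had 209 (t1), 222 (t6) and 189 (t7) CPM in WT and 160 (m1), 440 (t1) and 483 (t4) in KO. In each tissue 2 KO libraries were high and the third, KO colon t4 or KO jejunum m1, was below the WT mean, and these are the libraries that stood apart from the rest. The log2 changes of Dkk3 were 1.07 (SE 0.47, edgeR adjusted p = 0.329) and 0.80 (SE 0.47, adjusted p = 0.490).

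Sfrp1 had 218, 165 and 271 CPM in WT colon (t1, t6, t7), 218, 222 and 153 in KO colon (m1, t4, t6), 170, 242 and 143 in WT jejunum (t1, t6, t7) and 134, 152 and 148 in KO jejunum (m1, t1, t4). Its genotypes overlapped in both tissues. Fzd2, in the same order, had 138, 94.1 and 166, then 101, 73.4 and 109, then 113, 161 and 133, then 119, 109 and 118 CPM, again with overlap. Fzd7 had 84.8, 76.6 and 117, then 158, 98.6 and 184, then 125, 158 and 141, then 70.1, 184 and 174 CPM, and its KO jejunum values lay on both sides of WT. Sfrp1, Fzd2 and Fzd7 thus overlapped between genotypes in each tissue.

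Lrp6, the co-receptor, had 250, 260 and 261 CPM in WT colon, 297, 204 and 253 in KO colon, 172, 175 and 176 in WT jejunum and 172, 196 and 202 in KO jejunum. Colon exceeded jejunum without overlap in each genotype, with log2 differences of 0.56 (SE 0.16, edgeR adjusted p = 0.137) and 0.40 (SE 0.16, adjusted p = 0.232). Lgr4, the R-spondin receptor, had 109, 133 and 101 CPM in WT colon, 100, 69.6 and 160 in KO colon, 83.7, 81.0 and 83.7 in WT jejunum and 50.7, 68.7 and 69.4 in KO jejunum. Rspo3 had 29.7, 37.6 and 28.6, then 32.6, 51.3 and 31.9, then 41.3, 51.6 and 35.8, then 43.2, 38.1 and 37.0 CPM in the same order of groups. Lgr4 was lower in all KO than in all WT jejunum libraries (log2 change -0.40, SE 0.26, edgeR adjusted p = 0.548), and Rspo3 overlapped everywhere.

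**Figure D3:**
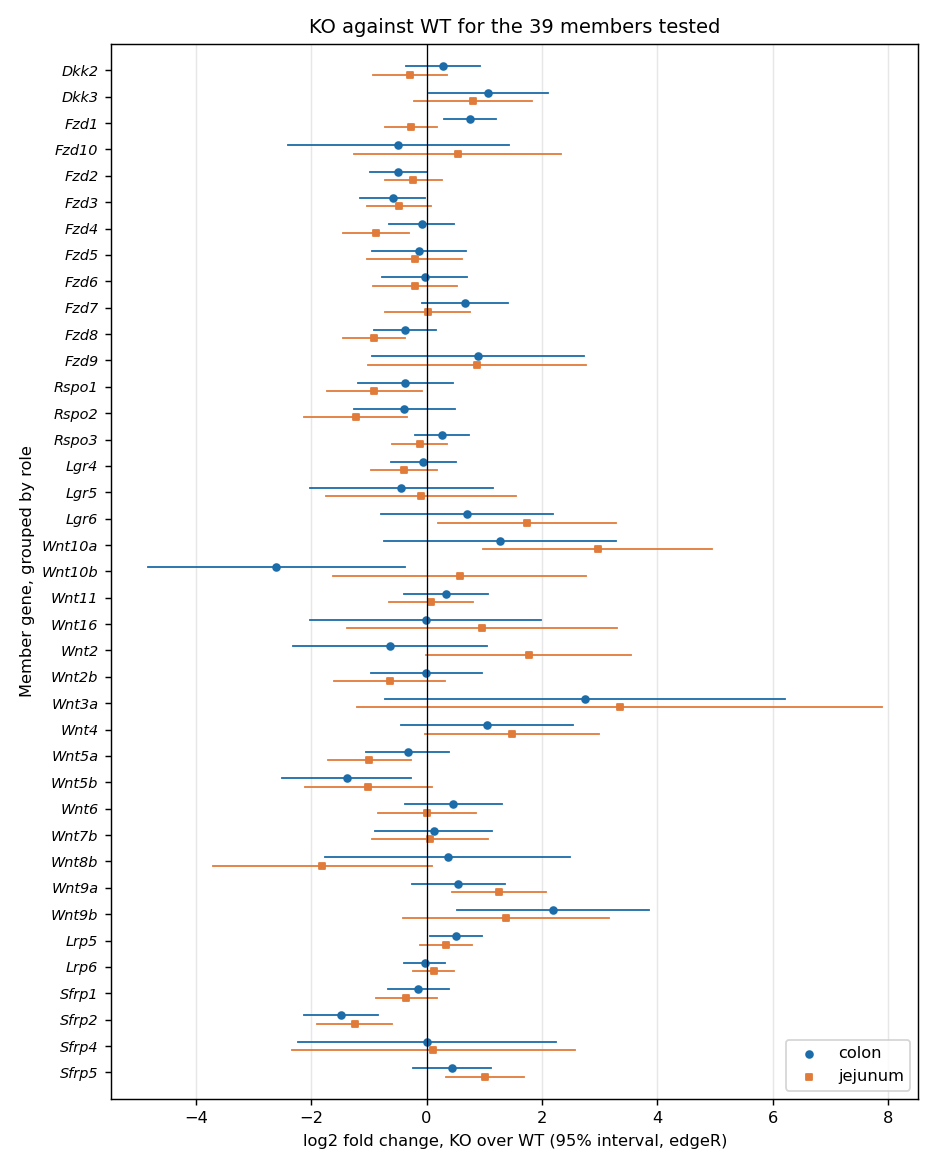
Log2 fold change of KO over WT with its 95% interval (edgeR) for the 39 tested members, colon as circles and jejunum as squares, grouped by role. Intervals of the low-level ligands Wnt3a, Wnt10a, Wnt10b and Wnt9b are wide, and Sfrp2 lies below 0 in each tissue.

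Genes of the pathway outside the set did not pass between genotypes either. Of 81 genes in 6 lists (secretion and ligand modulators, other receptors, destruction complex, nuclear effectors, transcriptional targets, and the planar polarity and calcium branch) 79 were tested. edgeR called 0 in colon and 0 in jejunum. An unadjusted p below 0.05 was found for 10 of 79 in colon and 11 in jejunum (14.5% and 13.2% of all genes), and DESeq2 called 6 and 3 (5.01% and 3.95% of all genes). Between tissues Frzb, a further Frizzled-related protein, was higher in colon (log2 difference 2.82 in WT, SE 0.35, and 2.33 in KO, SE 0.35). Tspan12, a co-factor of Fzd4 signalling, was lower in colon (-1.63, SE 0.23, and -1.78, SE 0.23). These were the only 2 of 79 called in each genotype.

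The common targets and feedback genes had a median log2 change of -0.35 in KO colon and -0.43 in KO jejunum, with 0 of 16 called in each. Directions were mixed: Myc, picked out after its values were seen, was at 14.4 ± 0.336 CPM in WT and 36.9 ± 21.7 in KO colon and at 10.9 ± 1.63 and 28.6 ± 11.1 CPM in jejunum, higher in all KO than in all WT libraries (log2 changes 1.36, SE 0.37, and 1.396, SE 0.37, edgeR adjusted p = 0.144 and 0.152; DESeq2 0.0196 and 0.0209). Tnfrsf19, also picked out afterwards, was lower in all KO than in all WT libraries of each tissue. It was at 20.8 ± 4.55 CPM in WT and 6.45 ± 2.67 in KO colon, and at 52.6 ± 4.41 and 23.9 ± 13.4 CPM in jejunum. Notum was likewise lower and Cdx2 higher in all KO libraries of each tissue, and Ccnd1 was lower without overlap in KO colon only. In jejunum only, Nkd1, Nkd2, Znrf3, Rnf43 and Tcf7 were also lower in all KO than in all WT libraries. The targets without overlap in jejunum were thus mostly lower in KO. Over all genes tested, 19.2% did not overlap between genotypes in colon and 22.2% in jejunum. Axin2 was at 31.3 ± 3.91 CPM in WT and 29.97 ± 14.5 in KO colon, and at 50.01 ± 7.74 and 34.1 ± 18.3 CPM in jejunum (SD, n = 3 each). Nkd1, an inhibitor induced by the pathway in many tissues, was at 181 ± 46.3 and 125 ± 55.6 CPM in colon and at 314 ± 11.3 and 179 ± 36.9 CPM in jejunum (log2 change in jejunum -0.81, SE 0.33, edgeR adjusted p = 0.329). Notum, a secreted enzyme that inactivates Wnt ligands, was at 1.90 ± 0.212 CPM in WT and 0.298 ± 0.289 in KO jejunum (log2 change -2.58, SE 0.79, adjusted p = 0.197; DESeq2 0.00978). Znrf3, Rnf43, Lef1 and Sp5 had log2 changes of -0.43, -0.06, -0.26 and -2.12 in colon and -0.47, -1.28, 0.50 and -0.03 in jejunum, with edgeR adjusted p of at least 0.346.

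The nuclei placed the members in cell classes. Nuclei were clustered without the members and without the pathway genes, so the classes did not use them. Of 21 clusters 20 were named from marker lists, 1 stayed unnamed (48 WT and 45 KO nuclei, led by Gm12930 and Timp1), and the names gave 13 classes over 3082 WT and 1833 KO nuclei (median 1425 and 1667 unique molecular identifiers, UMIs, per nucleus). Levels are given as UMIs per 10000 UMIs of the class with exact 95% Poisson intervals, which cover counting error only. With 1 library per genotype there is no test between genotypes. Classes rest on rebuilt names, and no doublets were removed, since the caller marked 0 nuclei in each library at the settings used. Shares of classes differed, with macrophage-like nuclei at 72 of 3082 in WT and 195 of 1833 in KO. Of the 46 members 27 had at least 20 UMIs over both libraries and are described. Their class of highest level, taken as the mean of both libraries, was mesothelial-like for 11 of 27 (Fzd1, Fzd2, Fzd7, Fzd8, Rspo1, Sfrp2, Wnt2b, Wnt4, Wnt5a, Wnt7b and Wnt9a), with 397 WT and 290 KO nuclei in that class. The share of all genes highest in this class was not counted. The 11 of 27 therefore does not show a preference of the set for it. Fzd7 and Wnt2b moved to macrophage-like nuclei with at least 500 genes per nucleus. Fzd8 moved to T lymphocyte-like nuclei at resolution 0.5 and when the highest doublet scores were removed, and its pooled rate was higher in enteric glia-like (0.214) than in mesothelial-like nuclei (0.190). The class joins clusters 4 and 12, with 274 and 123 nuclei in WT and 154 and 136 in KO, so differences between genotypes in it were also read by cluster. Cluster 12 had median mitochondrial shares of 1.82% in WT and 2.18% in KO, against 0.257% and 0.349% in cluster 4. Its median UMI count was 1060 in WT and 1887.5 in KO. All 6 mesothelial markers were over 2-fold in cluster 12, but 0 were among its leading genes.

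The second highest class of Wnt5a was B lymphocyte-like, with 9 UMIs in WT and 1 in KO. For 5 members the interval of the highest class lay above the intervals of all other named classes in both libraries: Wnt5a and Rspo1 in mesothelial-like, Dkk2 in interstitial cell of Cajal-like, Rspo2 in enteric neuron-like and Dkk3 in enteric glia-like nuclei. How many of all genes do so was not counted. Wnt5a was at 5.28 UMIs per 10000 (4.70 to 5.93) in WT and 5.62 (5.12 to 6.16) in KO mesothelial-like nuclei. Smooth muscle-like nuclei had 0.186 and 0.198 and epithelial-like nuclei 0.135 and 0.117. Rspo1 was at 3.58 (3.10 to 4.12) in WT and 4.97 (4.50 to 5.48) in KO mesothelial-like nuclei, against 0.0736 and 0.0888 in smooth muscle-like nuclei. Its intervals separated in cluster 12 (2.99 and 5.40) and overlapped in cluster 4 (3.83 and 4.46). Bulk colon did not show a higher Rspo1 in KO, with means of 39.6 CPM in WT and 30.6 CPM in KO and overlapping libraries. Of all UMIs, 62.9% of those of Wnt5a and 69.8% of those of Rspo1 fell in this class.

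Dkk2 was at 6.73 (5.46 to 8.202) in WT and 12.95 (10.998 to 15.2) in KO interstitial cell of Cajal-like nuclei, a cluster of 80 WT and 53 KO nuclei with Kit and Prkcq among its leading genes. The intervals did not overlap, and the KO level was 1.92-fold that of WT. Enteric glia-like nuclei had 0.0232 and 0.0173. Rspo2 was at 3.18 (2.86 to 3.53) in WT and 2.77 (2.42 to 3.15) in KO enteric neuron-like nuclei, where 93.9% of its UMIs lay. Of the 2 neuron clusters, cluster 14, with Chat among its leading genes, held most of it, at 5.37 (4.80 to 6.00) in WT and 4.44 (3.85 to 5.10) in KO, and cluster 17, led by Nos1, had 0.642 and 0.749.

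Dkk3 was at 1.85 (1.62 to 2.10) in WT and 4.14 (3.63 to 4.70) in KO enteric glia-like nuclei, a ratio of 2.24. Each of the 2 glia clusters showed it, at 2.13 and 4.403 in the larger and 0.837 and 3.16 in the smaller, without overlap of intervals. Dkk3 was also higher in KO in smooth muscle-like (0.515 and 0.908), interstitial cell of Cajal-like (0.618 and 1.99) and blood endothelial-like nuclei (0.166 and 1.95). The 36 WT blood endothelial-like nuclei held 60356 UMIs in all, where 2 UMIs of a gene are a rate of 0.331. The WT value of Dkk3 there thus rests on fewer than 2 UMIs. Within smooth muscle-like nuclei the intervals of Dkk3 separated in cluster 8 (0.327 and 0.816) and overlapped in clusters 1, 5 and 19. In bulk the KO colon libraries m1 and t6 were high while t4 was not.

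**Figure D4:**
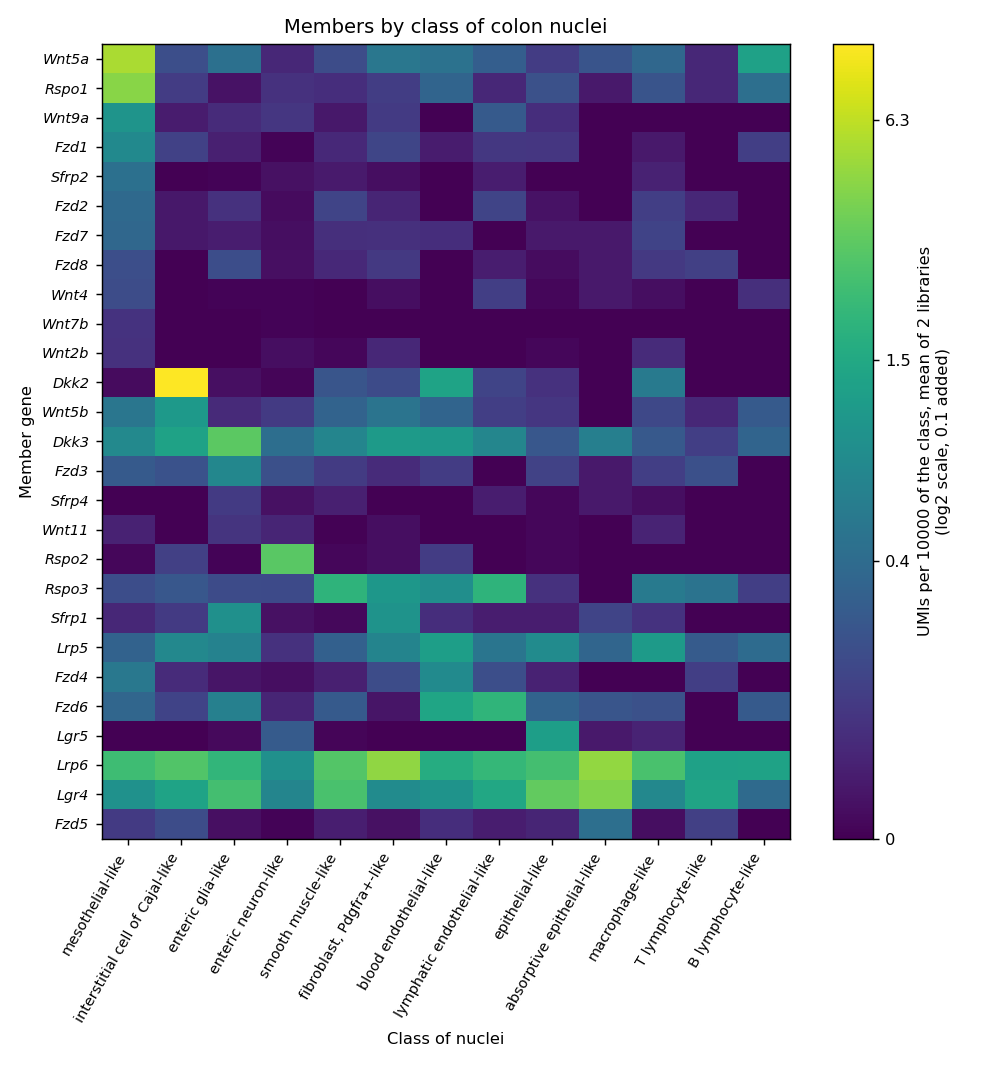
Levels of the 27 described members (rows) in 13 classes of colon nuclei (columns), as UMIs per 10000 of the class averaged over the WT and KO library on a log2 scale with 0.1 added. Wnt5a and Rspo1 stand out in mesothelial-like, Dkk2 in interstitial cell of Cajal-like, Dkk3 in enteric glia-like and Rspo2 in enteric neuron-like nuclei, while Lrp6 and Lgr4 are present in all classes.

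Of the other ligands, Wnt9a was at 0.507 (0.337 to 0.732) in WT and 1.46 (1.21 to 1.74) in KO mesothelial-like nuclei, a ratio of 2.88 with no overlap. By cluster its intervals separated in cluster 4 (0.463 and 1.54) and overlapped in cluster 12 (0.610 and 1.39). Its bulk estimate was also higher in KO, though not past the threshold. Wnt5b was highest in interstitial cell of Cajal-like nuclei (1.24 and 0.913), then mesothelial-like (0.688 in WT and 0.319 in KO, with overlap in each of the 2 clusters). Wnt4 was at 0.145 and 0.233 in mesothelial-like nuclei. Wnt2b (0.109 and 0.0735 there), Wnt7b (2 UMIs in WT and 13 in KO) and Wnt11 (0.116 and 0.0867 in enteric glia-like nuclei) rested on 12 to 20 UMIs in their highest class. Mesothelial-like nuclei thus held the highest level of 5 of the 7 described Wnt ligands, a count without a share over all genes beside it.

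Of the R-spondins and Frizzled-related proteins, Rspo3 was spread over smooth muscle-like (1.61 and 2.20) and lymphatic endothelial-like nuclei (1.10 and 2.67). Smooth muscle-like nuclei were made up differently in the 2 libraries, so Rspo3 was read by cluster: in cluster 8, led by Colec10, it was at 0.945 and 1.97, in cluster 19, led by Hs3st4, at 2.58 and 4.72, and in cluster 1, led by Alkal1, at 2.94 and 1.95, each without overlap of intervals. In cluster 5, led by Flna, the intervals overlapped (2.10 and 2.54). KO was thus higher in 2 of the 4 clusters and lower in 1. With at least 500 genes per nucleus or at resolution 0.5, lymphatic endothelial-like nuclei became the highest class of Rspo3. Sfrp1 was shared by fibroblast and Pdgfra-positive cell-like (0.900 and 1.02) and enteric glia-like nuclei (0.927 and 0.884). Sfrp2 was at 0.670 (0.471 to 0.923) in WT and 0.221 (0.131 to 0.349) in KO mesothelial-like nuclei, a ratio of 0.329. By cluster its intervals separated in cluster 12 (1.46 and 0.314) and overlapped in cluster 4 (0.334 and 0.108). Its bulk estimates in colon and jejunum were lower in KO too. Sfrp4, apart between tissues in bulk, had only 51 UMIs in colon nuclei, 18 of them in enteric glia-like nuclei.

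**Figure D5:**
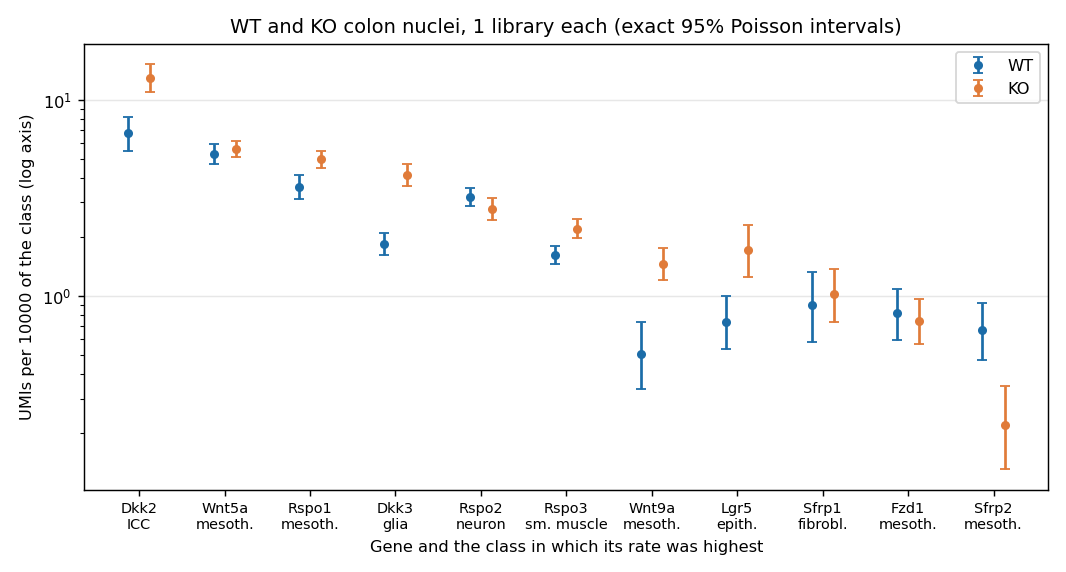
UMIs per 10000 of the class (log axis) in WT and KO nuclei for 11 members, each in its highest class; bars are exact 95% Poisson intervals and each genotype is 1 library. Intervals separate for Dkk2, Rspo1, Dkk3, Rspo3, Wnt9a, Lgr5 and Sfrp2, of which Sfrp2 alone is lower in KO. The 11 were chosen for display, so the number that separate is not a share of the members. By cluster, Lgr5 overlapped in the epithelial-like cluster that held it, and Rspo3 went both ways among the smooth muscle-like clusters. Rspo1, Wnt9a and Sfrp2 separated in only 1 mesothelial-like cluster.

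Receptors were broader. Lrp6 (2981 UMIs) and Lgr4 (2415 UMIs) had UMIs in all 13 classes. Lrp6 was at 2.95 in WT and 6.04 in KO fibroblast and Pdgfra-positive cell-like nuclei and at 3.20 and 6.04 in absorptive epithelial-like nuclei. The absorptive epithelial-like class held only 15 KO nuclei and 61 Lrp6 UMIs over both libraries. The pooled rate of Lrp6 was higher in fibroblast and Pdgfra-positive cell-like nuclei (4.82) than there (3.75). The former became its highest class with at least 500 genes per nucleus, at resolution 0.5 and without the highest doublet scores. Lgr4 was at 4.57 and 3.49 in absorptive epithelial-like and at 2.79 and 3.62 in epithelial-like nuclei. Fzd1, higher in all KO than in all WT colon libraries of the bulk, did not show this in its highest class. It was at 0.814 (0.594 to 1.09) in WT and 0.747 (0.572 to 0.960) in KO mesothelial-like nuclei, where 56.4% of its UMIs lay. Fzd2 (0.235 and 0.527), Fzd7 (0.380 and 0.343) and Fzd8 (0.253 and 0.147) were also highest there, at lower levels. Fzd4 was highest in blood endothelial-like (0.663 and 0.933), Fzd6 in lymphatic endothelial-like (1.74 and 2.13), Fzd3 in enteric glia-like (0.688 and 0.780), Lrp5 in blood endothelial-like (0.663 and 1.78) and Fzd5 in absorptive epithelial-like nuclei (3 and 2 UMIs).

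Lgr5, the R-spondin receptor that marks crypt stem cells, was highest in epithelial-like nuclei (0.740 and 1.71). The UMIs came from cluster 9, at 2.26 (1.64 to 3.03) and 2.71 (1.97 to 3.64), while cluster 6, led by Clca1 and holding Muc2 among its leading genes, had 0 UMIs in 220 WT and 53 KO nuclei (upper bounds 0.0924 and 0.389). The share of cluster 9 among epithelial-like nuclei differed between the libraries (154 of 374 and 88 of 141 nuclei), and within cluster 9 the intervals of Lgr5 overlapped. Lgr5 was also present in the neuron cluster led by Nos1, at 0.719 (0.506 to 0.991) and 0.348 (0.185 to 0.594). Epithelial cells are not part of the muscle coat.

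Over all 351 pairs of a described member and a named class, intervals did not overlap between genotypes in 19, of which 14 were higher and 5 lower in KO. These are 5.41%, 3.99% and 1.42% of the pairs, against 4.04%, 2.04% and 2% over all 14979 genes with at least 20 UMIs in the same classes. No test stands behind these counts. Fewer than 20 UMIs were found for 19 members: Sfrp5 and Wnt6 (16 each), Lgr6 (8), Wnt2 (4), Wnt16 (3), Fzd10 (2), and Wnt7a, Wnt9b, Wnt8b, Wnt10b, Rspo4 and Wnt3 (1 each). Fzd9, Dkk1, Dkk4, Wnt10a, Wnt1, Wnt3a and Wnt8a had 0 UMIs, which at 3 counts allows rates of up to 0.00416 in WT and 0.00525 in KO.

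The same nuclei gave counts in accessible chromatin regions, which were called separately in each library (35003 in WT and 26493 in KO). A region lay within 1000 bases of the gene start for 17 of 46 members in WT and 10 in KO, against 40.3% and 34.1% of all 32235 genes that could be placed. In WT these were Dkk1, Dkk3, Fzd3 to Fzd9, Lgr4, Lgr6, Lrp5, Lrp6, Rspo3, Sfrp2, Wnt2b and Wnt6, and in KO Fzd1, Fzd3, Fzd5, Fzd6, Lgr4, Lrp6, Rspo3, Rspo4, Sfrp4 and Sfrp5. Members listed in both libraries were Fzd3, Fzd5, Fzd6, Lgr4, Lrp6 and Rspo3. The region at Sfrp2 in WT (49 counts) began 180 bases past the start, downstream of the window printed above. Neither list had a region at the start of Dkk2, Wnt5a or Rspo1.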

How the data were processed

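For bulk, the authors deposited raw counts per Ensembl gene. For nuclei they deposited counts per barcode over genes and accessible regions, made with cellranger-arc 2.0.0 per the file headers. The submitters' processing notes list STAR 2.0.4b, featureCounts 1.4.5, edgeR, GRCm38 and mm10, and do not give their roles. Of 40757 bulk entries, 276 exact repeats were dropped. Genes were filtered by filterByExpr (20886 kept), scaled by TMM and tested with edgeR 4.0.16 (robust quasi-likelihood, 12 libraries, 4 group means, two-sided, Benjamini-Hochberg). CPM used TMM library sizes and RPKM the merged exon lengths of GENCODE M21. SEs of log2 changes are the estimate divided by the root of the quasi-likelihood F, and intervals use a t quantile on the moderated degrees of freedom. All gene values of nuclei were even and were divided by 2, so that 1 UMI is 1 molecule is an inference. Nuclei had at least 200 genes, under 5% mitochondrial UMIs and at most 50000 UMIs, and were clustered with scanpy 1.11.5 at resolution 1. A cluster took the name of the marker list with the highest mean fold, given a mean log2 fold of at least 0.5 and 3 markers over 2-fold. It stayed unnamed where its leading genes held more markers of another list, or held none of its own and its median UMI count was over 3 times above or below the library median. DESeq2 1.42.0 and limma voom 3.58.1 were alternatives. The edgeR step was tested on simulated data. Values in every library are given for members called in any contrast, the 3 smallest p in each KO comparison and the 10 highest RPKM. Members and lists were chosen with earlier results of these data known.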

Additional observations from a re-analysis of the deposited data

How the results depend on the processing

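The count of members called in KO against WT colon was 2 with DESeq2, 1 with limma voom and 1 with a filter of 1 CPM, against 0 as reported, and 0 to 1 when any 1 library was left out. In jejunum it was 3 with DESeq2 and 0 in every fit without 1 library. Between tissues in WT the 5 calls became 10 with DESeq2, 8 with only the 6 libraries compared and 1 to 8 without 1 library (8 without KO jejunum m1, 1 to 3 without any WT library). Between tissues in KO the single call became 7 with DESeq2, 3 with voom, 2 with the 1 CPM filter, 0 with 6 libraries only and 0 to 3 without 1 library (3 without KO colon t4). RLE size factors, total counts and no filter left each of these counts within 1.5 times. The share of all genes called is given above for the reported edgeR fit, DESeq2 and voom only. Counts of the other fits, including the block below, therefore have no background beside them and show only how the calls moved. Some tags are shared by colon and jejunum libraries of a genotype (t1, t6 and t7 in WT, m1 and t4 in KO). The labels do not say whether they name the same animals. Deviations of same-tag libraries from their group means correlated at 0.10, -0.01 and 0.06 in WT and -0.16 and -0.09 in KO. So few pairs from different tissues cannot show whether the tags pair the samples. With the tags as a replicate block, 1 member was called in WT (Wnt5a, adjusted p = 0.0275), 0 in KO and 0 for the difference of KO changes. No paired analysis was possible for KO against WT because the groups share only 1 tag. The 47 member values with an unadjusted p below 0.05 were refitted 913 times: 38 refits passed and 35 lost the threshold relative to the value reported, and none changed sign. Other values did change sign, such as Sfrp4 in KO against WT jejunum (-2.14 to 1.85 without 1 library). In nuclei, 22 of 27 members kept their highest class with at least 500 genes per nucleus and 23 of 27 at resolution 0.5. It was also 23 of 27 when the 5% highest doublet scores were removed, an alternative chosen after seeing the data. Wnt5a, Rspo1, Dkk2, Rspo2 and Dkk3 kept theirs in each. Of 216 rates, 18 moved beyond their interval. At 500 genes the caller marked 228 WT and 3 KO nuclei. A window of 5000 bases gave 19 WT and 11 KO members with a region. The cause of these shifts was not tested.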

Other observations

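Genes of the pathway that are induced as feedback were also read in the nuclei, as values without a test. Znrf3, a ligase that removes Frizzled receptors, was at 3.55 UMIs per 10000 (3.31 to 3.81) in WT and 1.81 (1.60 to 2.04) in KO smooth muscle-like nuclei, and the clusters that make up this class differ between the libraries. Nkd1 was at 1.39 (1.24 to 1.55) and 1.17 (0.999 to 1.36) in the same class. Rnf43, the relative of Znrf3, was at 3.06 (2.63 to 3.54) and 2.88 (2.26 to 3.61) in epithelial-like nuclei. Axin2 was at 0.387 (0.245 to 0.581) and 0.350 (0.160 to 0.665) there. Lef1 was highest in T lymphocyte-like nuclei, at 2.76 (1.32 to 5.08) and 1.63 (0.840 to 2.84). Frzb, the Frizzled-related protein higher in colon than in jejunum, was at 0.603 (0.476 to 0.752) and 0.381 (0.239 to 0.577) in enteric glia-like nuclei. Notum had 8 UMIs and Sp5 had 0 over both libraries.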
